A study of Mus musculus with 14 samples.

Results

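The transcripts of 10 mouse genes that serve the unfolded protein response and the response to amino acid shortage were followed: Hspa5, Hsp90b1, Calr, Pdia4, Herpud1, Xbp1, Atf4, Ddit3, Trib3 and Asns. They were chosen by name from the 35449 genes listed, with earlier results of these data known. All 10 were listed with counts in the 14 libraries. The libraries came from primary lines started from E13.5 mouse embryos. Body tissue gave mouse embryonic fibroblasts (MEFs), and heads gave neurospheres, floating cultures of neural stem and precursor cells. Wild type lines (WT) were set beside lines in which H3f3a, a gene of a histone H3 variant, had been targeted by a knockout-first design, named KO in the labels. MEFs comprised 3 WT and 5 KO lines, and neurospheres 3 of each genotype. Each was an independent line with 1 library, and the labels give the treatment of all lines as none, so that no line was exposed to a stress agent. Strain and sex are not given in the labels.

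The unfolded protein response adjusts the endoplasmic reticulum (ER) to its load of new proteins. Sensors in the ER membrane react when folding falls behind: ATF6 and XBP1 raise chaperones and degradation factors, while PERK phosphorylates the translation factor eIF2 alpha. The same phosphorylation follows amino acid shortage through GCN2, and both routes raise translation of ATF4, a transcription factor for amino acid synthesis and transport. Fibroblasts make much secreted matrix, such as collagen, which is folded in the ER.

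The response is read from short promoter elements, so the windows of the members that hold one are shown before their levels. The ER stress response element was searched as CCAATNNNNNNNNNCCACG, its variant type II as ATTGG and CCACG with 1 base between, and the element bound by ATF4 with C/EBP partners as TGATGNAA. Both strands were searched in 300 bases around each RefSeq start site (250 before, 50 after; GRCm38.p6), which all 10 members have. Each sequence runs 5′ to 3′ along the gene's strand with the matched letters in capitals, and a match on the other strand shows as the reverse complement.
Hspa5, ER stress element: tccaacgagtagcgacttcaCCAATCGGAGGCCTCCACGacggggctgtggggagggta
Hsp90b1, ER stress element far from the start: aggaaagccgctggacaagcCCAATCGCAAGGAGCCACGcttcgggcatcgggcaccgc
Hsp90b1, ER stress element near the start, other strand: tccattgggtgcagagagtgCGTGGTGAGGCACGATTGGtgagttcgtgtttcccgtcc
Calr, ER stress element, other strand: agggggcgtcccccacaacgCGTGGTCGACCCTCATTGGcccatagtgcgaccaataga
Herpud1, ER stress element type II: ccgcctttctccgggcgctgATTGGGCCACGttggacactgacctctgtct
Herpud1, ATF4 element, other strand: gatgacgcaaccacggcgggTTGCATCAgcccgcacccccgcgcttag
Asns, ATF4 element: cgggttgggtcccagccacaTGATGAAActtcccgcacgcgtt

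The Hspa5 window lies at chr2:34772005-34772063, with its element 65 to 47 bases before the start. Distances are to the RefSeq start, and the Hspa5 and Asns windows lie inside the gene spans given below, which come from GENCODE. The Hsp90b1 windows lie at chr10:86705618-86705676 and chr10:86705513-86705571 (elements 212 to 194 and 107 to 89 bases before the start), and the Calr window at chr8:84847055-84847113 (162 to 144 bases). The Herpud1 windows lie at chr8:94386357-94386407 (52 to 42 bases) and chr8:94386297-94386344 (112 to 105 bases), and the Asns window at chr6:7693210-7693252 (23 to 16 bases). The full ER stress element occurred in 3 of the 10 members and in 37 of 27025 genes with a promoter (0.137%). It occurred in 7 of the 17 matched ER chaperone and folding genes. The type II element occurred in 12 genes (0.0444%), Herpud1 among them. The ATF4 element occurred in 1219 genes (4.51%), among them Asns, Herpud1 and Trib3, where it lies just after the start on the other strand. The core letters TGACGTG of a further XBP1 and ATF6 element occurred in 601 genes (2.22%), of the members in Hspa5 alone. ER stress elements were first described in promoters of this group, so these matches are a description and no independent support.

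In the libraries, total counts ran from 1669406 (KO neurospheres 2) to 3296178 (WT MEFs 3), and mitochondrially encoded transcripts took 5.27% to 6.15% of counts in MEFs and 12.9% to 16.8% in neurospheres. H3f3a stood at 844 to 1423 CPM (library-scaled counts) in WT MEFs against 7.27 to 18.8 CPM in KO MEFs, and at 1964 to 2409 against 26.2 to 70.7 CPM in neurospheres, as the labels have it. The summed level of 8 fibroblast markers ran from 13500 to 21600 CPM in MEFs and from 1.75 to 71.4 CPM in neurospheres. Col3a1, Pdgfrb and Postn were at 0 in KO neurospheres. The sum of 8 neural stem cell markers ran from 48.0 to 171 CPM in MEFs and from 3070 to 6530 CPM in neurospheres. Neurospheres also held 1870 to 3660 CPM of 4 astrocyte markers, most of it Slc1a3, with Aqp4 at 0 in WT neurospheres, and 1070 to 2470 CPM of 5 oligodendrocyte lineage markers. The sum of 5 neuron markers ran from 1230 to 1550 CPM there, of which Map2 alone gave 1340 ± 134 CPM (SD, n = 3) in WT and 1362 ± 113 CPM (n = 3) in KO lines. Tubb3 and Stmn2 of that list were higher on average in MEFs than in neurospheres, Rbfox3 stood at 1.80 CPM or less in every line, and Dcx was at 0 in all MEFs and at 2.48 to 30.5 CPM in neurospheres. In bulk RNA, fewer cells of a type and less RNA per cell cannot be told apart.

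Levels are given below as CPM, which relates a gene's counts to the size of its library, with TMM scaling over all libraries. They are compared between lines and not between genes. Differences between groups are log2 values from edgeR's quasi-likelihood test with the standard error (SE), and adjusted p is by Benjamini-Hochberg over all genes tested, with 0.05 as threshold. Since each library is its own line, the tests measure the spread between lines.

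All 10 genes were lower in WT neurospheres than in WT MEFs at the threshold, where 20.8% of all 11080 genes tested were called lower and 20.8% higher. In the KO lines, which share no library with the WT lines, 9 of the 10 were called lower, against 26.2% of 11413 genes called lower and 25.4% higher. The median log2 difference of the 10 was -2.30 in WT and -2.02 in KO lines, against 0.021 and -0.010 over all genes tested. For 9 of the 10 genes in each comparison the lines of the cell types did not overlap. In KO lines these include Ddit3, for which KO neurospheres 2 and KO MEFs 2 both lay at 22.2 CPM. The background of non-overlap was 57.1% of genes in WT and 49.8% in KO lines, in either direction. The members were chosen with earlier results of these data known, so these counts and medians are a description. Tissue of origin, cell type and form of culture cannot be told apart here, and the share of mitochondrial transcripts moves with the cell type; its part in the differences was not tested.

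**Figure D1:**
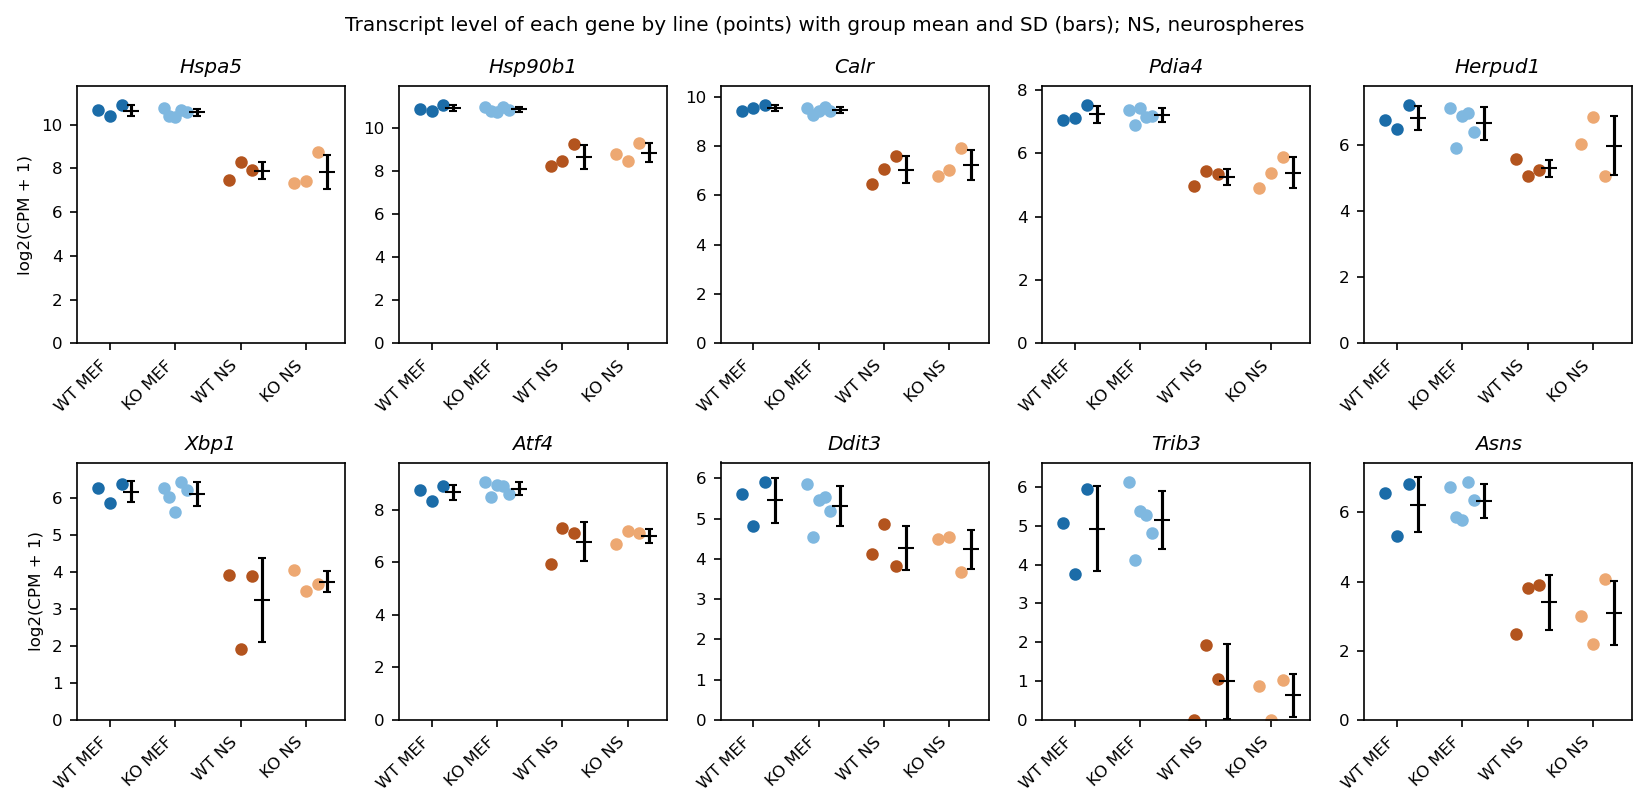
Level of each gene as log2(CPM + 1) in every line (points), by group on the horizontal axis, with the group mean and SD as a black bar. The lower level in neurospheres (NS) is seen for every gene, and lines overlap between cell types in Ddit3 and Herpud1; Trib3 lies near 0 in neurospheres.

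Hspa5 (chr2:34771970-34777547, GRCm38) encodes BiP, the ER HSP70 chaperone that also holds the stress sensors inactive. It stood at 1614, 1326 and 1905 CPM in WT MEFs 1 to 3 and at 1744, 1354, 1317, 1650 and 1511 CPM in KO MEFs 1 to 5. In neurospheres it stood at 179, 308 and 240 CPM in WT lines and at 160, 170 and 423 CPM in KO lines. The highest neurosphere line, KO neurospheres 3, lay well below the lowest MEF line. The difference was 6.56-fold in WT lines (log2 -2.71, SE 0.29, adjusted p = 0.000452) and 5.94-fold in KO lines (log2 -2.57, SE 0.34, adjusted p = 0.000233). Without KO neurospheres 3 the log2 difference in KO lines was -3.17 (adjusted p = 4.19e-06).

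Hsp90b1 (chr10:86690209-86705509) encodes GRP94, the HSP90 of the ER. It stood at 1915, 1764 and 2155 CPM in WT MEFs and at 1995, 1773, 1738, 2035 and 1835 CPM in KO MEFs. Its level was 301, 354 and 617 CPM in WT neurospheres and 445, 358 and 638 CPM in KO neurospheres. WT neurospheres 3 and KO neurospheres 3 were the highest neurosphere lines, and all lay below every MEF line (WT log2 -2.18, SE 0.31, adjusted p = 0.00145; KO log2 -1.94, SE 0.21, adjusted p = 6.75e-05).

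Calr (chr8:84841850-84846934), which encodes the lectin chaperone and calcium store calreticulin, stood at 678, 734 and 808 CPM in WT MEFs and at 737, 614, 682, 762 and 690 CPM in KO MEFs. It stood at 87.8, 132 and 192 CPM in WT neurospheres and at 108, 129 and 241 CPM in KO neurospheres. The log2 difference was -2.41 (SE 0.31, adjusted p = 0.000923) in WT and -2.11 (SE 0.27, adjusted p = 0.000176) in KO lines. Pdia4 (chr6:47796141-47813430), a protein disulfide isomerase, stood at 130, 138 and 183 CPM in WT MEFs and at 164, 117, 172, 141 and 143 CPM in KO MEFs. Neurosphere levels of Pdia4 were 30.2, 42.8 and 39.4 CPM in WT and 28.8, 40.8 and 57.6 CPM in KO lines. Its difference was -1.98 (SE 0.25, adjusted p = 0.000850) in WT and -1.77 (SE 0.25, adjusted p = 0.000317) in KO lines. The 4 chaperone genes were thus 3.41- to 6.56-fold lower in neurospheres.

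Herpud1 (chr8:94386438-94395377) encodes HERP, a membrane protein that helps pass misfolded ER proteins to degradation. It stood at 108, 87.9 and 147 CPM in WT MEFs and at 138, 59.1, 117, 125 and 83.9 CPM in KO MEFs. WT neurospheres held 46.9, 32.1 and 36.9 CPM, below every WT MEF line (2.92-fold; log2 -1.54, SE 0.28, adjusted p = 0.00372). KO neurospheres held 64.3, 114 and 32.8 CPM, which overlapped KO MEFs, and the difference did not pass (log2 -0.56, SE 0.40, adjusted p = 0.270). KO neurospheres 2 was as high as the middle MEF lines. Without that line Herpud1 passed in KO lines too (log2 -1.08, adjusted p = 0.0446).

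Xbp1 (chr11:5520659-5525893) encodes the transcription factor made active by IRE1 through removal of a short intron. Libraries of 3′ ends do not distinguish the spliced from the unspliced form, so the values are of both together. It stood at 76.8, 57.7 and 83.6 CPM in WT MEFs and at 76.4, 64.6, 48.4, 86.8 and 73.7 CPM in KO MEFs. In neurospheres it stood at 14.1, 2.80 and 13.8 CPM in WT and at 15.7, 10.2 and 11.9 CPM in KO lines, and WT neurospheres 2 was the lowest with 6 counts. The difference was 6.88-fold in WT (log2 -2.78, SE 0.52, adjusted p = 0.00472) and 5.45-fold in KO lines (log2 -2.45, SE 0.26, adjusted p = 6.31e-05).

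Atf4 (chr15:80255184-80257541), whose protein is regulated mainly at translation, stood at 423, 324 and 474 CPM in WT MEFs and at 536, 356, 495, 473 and 382 CPM in KO MEFs. It stood at 60.7, 157 and 137 CPM in WT neurospheres and at 102, 144 and 138 CPM in KO neurospheres. WT neurospheres 1 was the lowest line, and the cell types did not overlap. The difference was 3.39-fold in WT (log2 -1.76, SE 0.37, adjusted p = 0.00740) and 3.45-fold in KO lines (log2 -1.79, SE 0.21, adjusted p = 0.000105).

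Ddit3 (chr10:127290774-127296288) encodes CHOP, a transcription factor tied to cell death in lasting ER stress. It stood at 47.9, 27.3 and 59.6 CPM in WT MEFs and at 57.5, 22.2, 43.1, 45.7 and 35.4 CPM in KO MEFs. Neurospheres held 16.4, 28.4 and 13.1 CPM in WT and 21.4, 22.2 and 11.9 CPM in KO lines. WT neurospheres 2 lay above WT MEFs 2, and KO neurospheres 2 lay level with KO MEFs 2. The difference was 2.30-fold in WT (log2 -1.20, SE 0.41, adjusted p = 0.0462) and 2.19-fold in KO lines (log2 -1.13, SE 0.35, adjusted p = 0.0206).

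The WT call of Ddit3 ended without WT MEFs 1 (adjusted p = 0.112), WT MEFs 3 (0.153), WT neurospheres 1 (0.128) or WT neurospheres 3 (0.128), and the KO call without KO neurospheres 3 (0.0631). The last 68 bases of Ddit3 overlap Mars on the other strand, the strand setting of the authors' mapping is not given in the sources used here, and Mars was itself lower in neurospheres in both comparisons.

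Trib3 (chr2:152337422-152344032) encodes a pseudokinase induced by ATF4 and CHOP. It stood at 32.4, 12.6 and 60.5 CPM in WT MEFs and at 69.5, 16.4, 40.7, 38.1 and 27.1 CPM in KO MEFs. In neurospheres it had 0, 6 and 3 counts in the WT lines and 2, 0 and 3 counts in the KO lines. A count of 0, read as up to 3 counts, allows 1.14 CPM in WT neurospheres 1 and 1.80 CPM in KO neurospheres 2. The fitted log2 difference was -4.79 (SE 0.93, adjusted p = 0.00610) in WT and -5.65 (SE 0.71, adjusted p = 0.000166) in KO lines, and its size is uncertain at so few counts. The WT value was -5.89 without WT neurospheres 2 (adjusted p = 0.0130), -4.20 without WT neurospheres 1 (0.0177) and -4.13 without WT MEFs 3 (0.0209).

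Asns (chr6:7675169-7693254), which encodes asparagine synthetase, the classic target of the amino acid response, stood at 93.4, 38.7 and 111 CPM in WT MEFs and at 106, 57.4, 54.2, 118 and 81.3 CPM in KO MEFs. Neurospheres held 4.58, 13.0 and 13.8 CPM in WT and 7.0, 3.6 and 15.7 CPM in KO lines. No neurosphere line reached the lowest MEF line. The difference was 7.61-fold in WT (log2 -2.93, SE 0.54, adjusted p = 0.00474) and 9.0-fold in KO lines (log2 -3.17, SE 0.47, adjusted p = 0.000476). Without KO neurospheres 3, the highest KO neurosphere line, it was -3.90 in KO lines (log2; adjusted p = 0.000152).

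**Figure D2:**
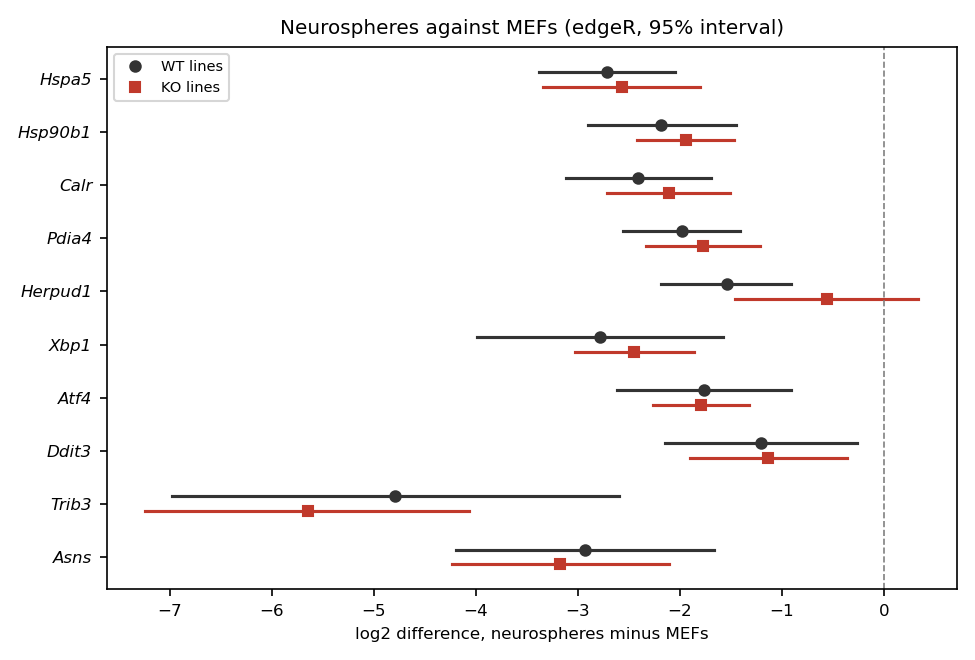
Log2 difference of neurospheres minus MEFs for each gene, with the 95% interval of the edgeR fit, in WT (circles) and KO lines (squares). The points run from -1.13 for Ddit3 to -5.65 for Trib3, apart from Herpud1 in KO lines at -0.56, whose interval of -1.46 to 0.34 holds 0.

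Genes of the pathways were taken from 9 lists, written with earlier results of these data known. The lists hold the members except Xbp1 and Atf4, so the counts and medians below include members. Of all 10859 genes tested in both comparisons, 18.7% were lower in neurospheres in both and 18.5% higher in both, which is the background for the counts that follow. Of 20 ER chaperone and folding genes tested in both comparisons, 13 were lower in neurospheres in both and 0 higher. In the KO comparison alone, 1 gene of this list was called higher. Dnajb9 of this list averaged 41.05 CPM in WT MEFs and 69.35 CPM in WT neurospheres, and 34.92 and 71.75 CPM in KO lines. Canx averaged 707 and 731 CPM in WT lines. The members Hspa5, Hsp90b1, Calr and Pdia4 are among the 13 lower genes. Among those beyond the members, the disulfide isomerase gene Pdia6 stood at 805 ± 42.8 CPM (SD, n = 3) in WT MEFs and 141 ± 33.1 CPM in WT neurospheres (log2 -2.49, edgeR adjusted p = 0.000336). P4hb, which encodes a disulfide isomerase that is also a subunit of collagen prolyl hydroxylase, stood at 478 ± 47.2 and 115 ± 12.6 CPM, and Fkbp14, a prolyl isomerase gene of the ER, stood at 55.5 ± 4.82 and 13.4 ± 4.34 CPM. Of 20 genes of the ER translocon, signal recognition and glycosylation, 12 were lower and 0 higher in both; Sec61b, a subunit of the import channel, stood at 275 ± 33 and 72.2 ± 12.4 CPM in WT lines.

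Of 16 degradation genes, 5 were lower in both comparisons, among them Edem1 (64.4 ± 9.49 CPM in WT MEFs, 14.6 ± 3.90 in WT neurospheres), which picks glycoproteins for degradation. Os9, which encodes a lectin of the same route, was higher in both, at 32.8 ± 2.18 CPM in WT MEFs and 92.7 ± 13.4 CPM in WT neurospheres (log2 1.52, edgeR adjusted p = 0.00141). Of 9 sensor and transcription factor genes, 3 were lower in both: Creb3l1 (54.0 ± 18.3 and 1.09 ± 1.06 CPM), a transcription factor gene of secretory cells, Creb3 and the protease gene Mbtps2. The 3 main sensors did not pass: the log2 difference in WT lines was -0.73 for Ern1 (IRE1; adjusted p = 0.132), 0.18 for Eif2ak3 (PERK; 0.735) and -0.24 for Atf6 (0.456), and in KO lines 0.50, 0.03 and 0.03 (0.360, 0.962 and 0.920). These sensors were named after their values were seen.

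Of 13 targets of ATF4 and CHOP outside amino acid supply, 7 were lower in both comparisons, with Ddit3 and Trib3 among them. The glutathione-degrading enzyme gene Chac1 stood at 23.3 ± 11.4 CPM in WT MEFs and 1.89 ± 1.49 CPM in WT neurospheres, and the transcription factor gene Cebpb at 87.3 ± 21.3 and 9.17 ± 2.30 CPM. Vldlr, a lipoprotein receptor gene, was higher in both (32.8 ± 8.07 and 94.0 ± 50.4 CPM in WT lines). Of 18 genes of amino acid synthesis and transport, 10 were lower in both, Asns among them, and Cbs, which starts conversion of homocysteine to cysteine, was higher. The glutamine transporter gene Slc1a5 stood at 48.9 ± 5.16 CPM in WT MEFs and 1.26 ± 0.694 CPM in WT neurospheres (log2 -5.16, edgeR adjusted p = 0.000150), and Mthfd2, a mitochondrial folate enzyme gene, at 204 ± 87.8 and 18.1 ± 14.4 CPM.

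Of 18 cytosolic aminoacyl-tRNA synthetase genes, 14 were lower and 0 higher in both comparisons. Iars stood at 244 ± 64.5 CPM in WT MEFs and 40.3 ± 13.4 CPM in WT neurospheres, and Nars at 612 ± 269 and 131 ± 17.9 CPM. Of 12 genes of eIF2, its exchange factor, kinases and phosphatase, 5 were lower and 0 higher in both, with Eif2s1, which encodes eIF2 alpha itself, at 130 ± 44.9 and 33.8 ± 3.86 CPM. Cytosolic heat shock genes, which belong to a separate stress response, were lower in both in 8 of 11 cases. Hspb1 stood at 213 ± 94.7 CPM in WT MEFs and 1.20 ± 0.174 CPM in WT neurospheres. Over the 9 lists the median log2 difference in WT lines ran from -1.66 for amino acid synthesis and transport to -0.53 for the sensors and for degradation. In KO lines it ran from -1.66 for the chaperones to 0.03 for the sensors.

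**Figure D3:**
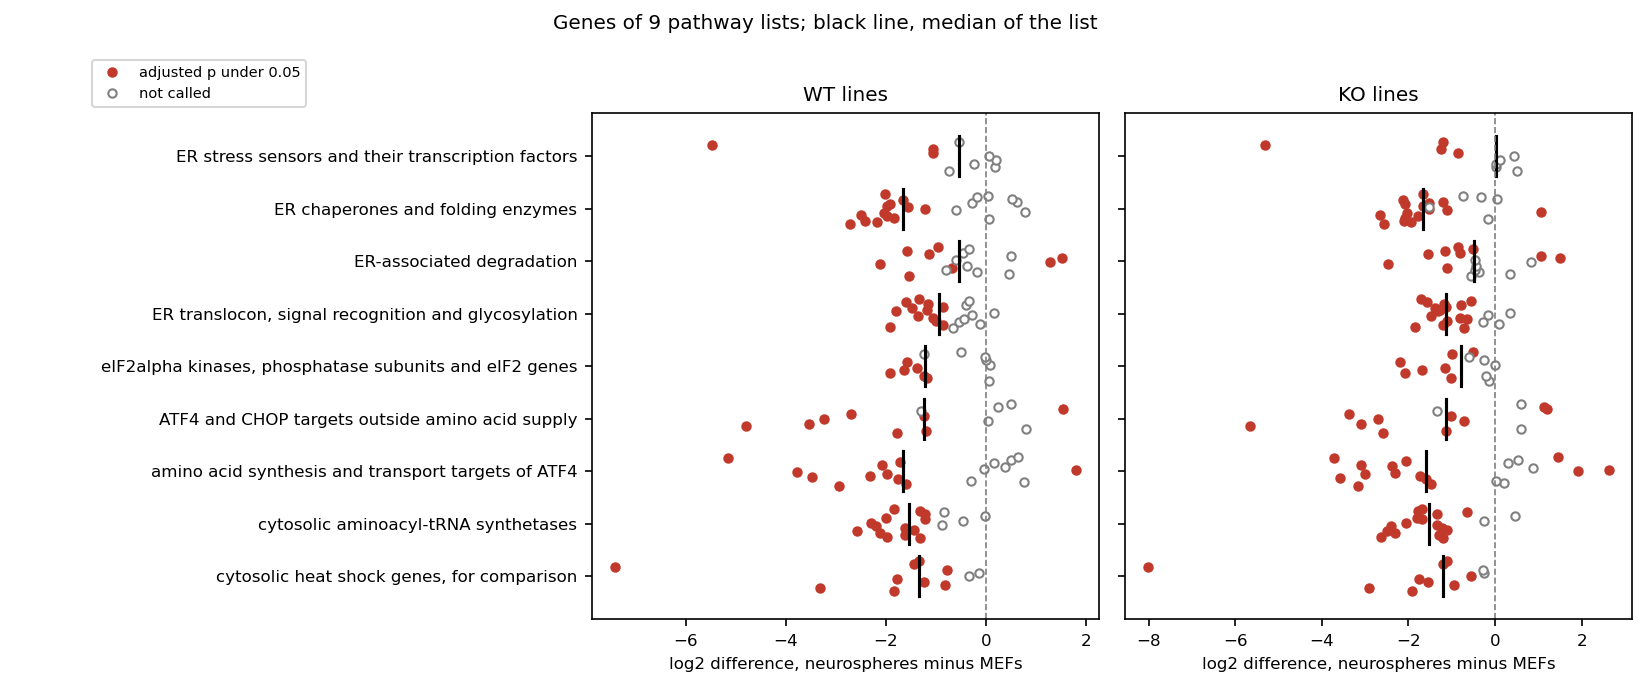
Log2 difference of neurospheres minus MEFs for each tested gene of 9 pathway lists, in WT lines (left) and KO lines (right); filled points have an adjusted p under 0.05 and the black line is the median of the list. Medians lie between -1.66 and -0.53 in WT lines, and the median of the sensors is 0.03 in KO lines.

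Outside the members, 11 tested genes with the full ER stress element in their promoter had a median log2 difference of -0.54 in WT lines, with 4 lower and 2 higher, where 20.8% of all genes were called in each direction. In KO lines 10 such genes had a median of -0.49, with 4 lower and 1 higher, against 26.2% and 25.4% of all genes. For the far more frequent ATF4 element the median of 219 genes outside the members was -0.11 in WT lines, with 53 lower and 38 higher, and that of 229 genes was -0.01 in KO lines, with 68 lower and 52 higher. For the ATF4 element the shares called lower lie near those of all genes in both comparisons.

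Between KO and WT lines no member passed the threshold. In MEFs 0 of 10 members were called between KO and WT lines, where 0.00927% of 10785 genes, H3f3a alone, were called. The lines of the genotypes overlapped for all 10, while 1.85% of all genes did not overlap. The log2 difference of KO minus WT ran from -0.14 for Ddit3 to 0.14 for Atf4, with a median of -0.06 against -0.001 over all genes. By edgeR 175 of all genes had an unadjusted p under 0.05, and none of the members did; DESeq2 also called 1 gene.

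The precision in MEFs differed between the members. Hsp90b1 stood at 1944 ± 197 CPM (SD, n = 3) in WT and 1875 ± 133 CPM (n = 5) in KO MEFs, with a 95% interval of the log2 difference from -0.33 to 0.22. Calr stood at 740 ± 65.1 and 697 ± 57.0 CPM (-0.37 to 0.19), and Hspa5 at 1615 ± 289 and 1515 ± 184 CPM (-0.44 to 0.26). For Asns and Trib3 the intervals were wider, while that of Atf4 ran from -0.27 to 0.55. Asns stood at 81.0 ± 37.7 and 83.3 ± 28.3 CPM (-0.80 to 0.88), and Trib3 at 35.2 ± 24.1 and 38.4 ± 19.9 CPM (-1.13 to 1.37). A change of 2-fold in Trib3 in either direction lies inside its interval, while for the 4 chaperone genes it lies outside. Macrophage markers, 6 in all, summed to 50.8 to 157 CPM in WT MEFs and 15.5 to 74.5 CPM in KO MEFs; their part in these values was not tested.

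In neurospheres 0 of 9 members tested were called, where 0.00941% of 10624 genes, again H3f3a alone, were called; Trib3 did not pass the filter on low counts. The groups overlapped for all 10 members, while 7.20% of genes did not overlap. By edgeR 227 genes and none of the 9 members had an unadjusted p under 0.05, and DESeq2 called 7 genes, of which none was a member. Herpud1 stood at 38.6 ± 7.56 CPM (SD, n = 3) in WT and 70.3 ± 40.9 CPM in KO lines (log2 0.87, SE 0.42, 95% interval -0.11 to 1.84, edgeR adjusted p = 0.999). KO neurospheres 3, at 32.8 CPM, lay among the WT lines for Herpud1, and without KO neurospheres 2 its log2 value was 0.33. Hspa5 stood at 242 ± 64.7 and 251 ± 149 CPM (log2 0.07, 95% interval -0.91 to 1.05), and its spread in KO lines came from KO neurospheres 3.

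**Figure D4:**
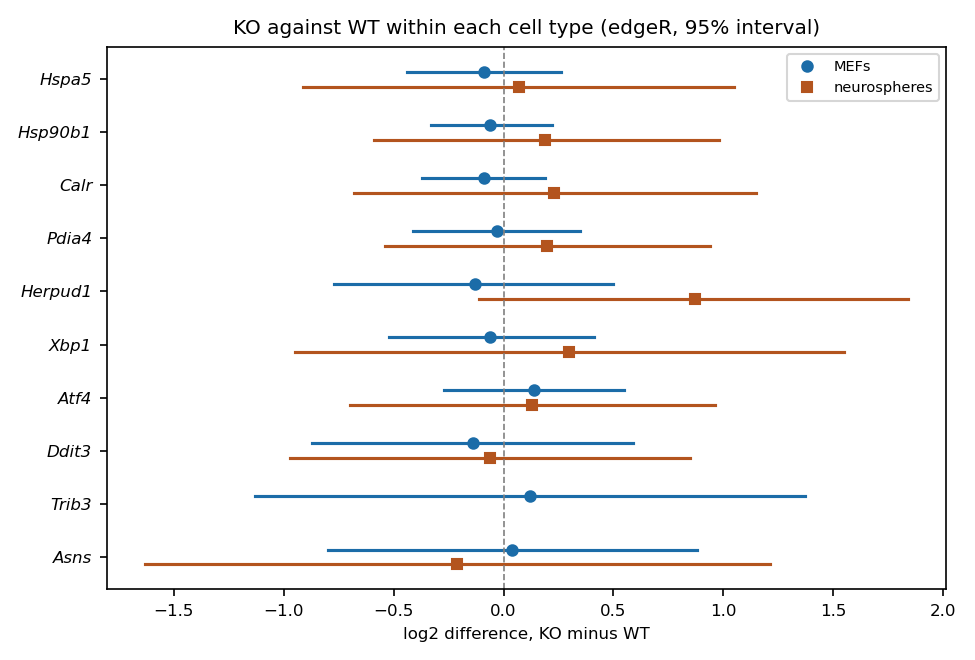
Log2 difference of KO minus WT for each gene in MEFs (circles) and neurospheres (squares), with the 95% interval of the edgeR fit. Every interval holds 0; the points in MEFs lie between -0.14 and 0.14, and Trib3 has no neurosphere value because it did not pass the filter.

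The difference between cell types in the KO effect was tested as an interaction over all 14 libraries. By edgeR 0 of 10 members and 0% of 12113 genes were called, with 366 genes but no member at an unadjusted p under 0.05; DESeq2 called 3 genes. Herpud1 had a log2 interaction of 0.98 (SE 0.53, 95% interval -0.16 to 2.13, adjusted p = 1), and 0.46 without KO neurospheres 2.

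Of all genes on the 9 lists, 0 of 141 tested in MEFs and 0 of 129 in neurospheres were called between KO and WT lines. In MEFs 1 gene had an unadjusted p under 0.05, Ern1 (log2 -0.88, SE 0.38), which was named after its value was seen. The other list genes named by the rule all had an adjusted p of 1 in MEFs. Syvn1, which encodes the ubiquitin ligase HRD1 of ER degradation, stood at 39.9 ± 5.66 CPM (SD, n = 3) in WT and 30.8 ± 5.88 CPM (n = 5) in KO MEFs (log2 -0.38), and Eif2ak4, the gene of GCN2, at 30.8 ± 4.83 and 23.1 ± 5.43 CPM (log2 -0.41). Dnajb1, a cytosolic HSP40 gene, stood at 47.9 ± 6.66 and 39.5 ± 4.64 CPM (log2 -0.28), and of these genes it alone had KO lines that did not overlap the WT lines. Creb3l2, a transcription factor gene, stood at 97.1 ± 20.8 and 115 ± 6.63 CPM (log2 0.24), and Eif2b5, a subunit gene of the eIF2 exchange factor, at 32.8 ± 6.55 and 40.0 ± 6.58 CPM (log2 0.28). In neurospheres 2 genes had an unadjusted p under 0.05. Slc7a11, the cystine transporter gene of the ATF4 program, stood at 46.6, 11.2 and 23.4 CPM in WT lines and at 103, 266 and 30.4 CPM in KO lines, which overlapped (log2 2.30, SE 0.85, adjusted p = 0.999). Gadd45a, a stress and DNA damage gene, stood at 22.9, 29.3 and 39.7 CPM in WT and at 44.1, 54.5 and 50.3 CPM in KO lines, which did not overlap (log2 0.70, SE 0.28, adjusted p = 0.999). Slc6a9, a glycine transporter gene, stood at 14.3 ± 3.91 CPM (SD, n = 3) in WT and 26.0 ± 11.8 CPM in KO neurospheres, which overlapped (log2 0.86, SE 0.39, adjusted p = 0.999). Slc7a11, Slc6a9 and Herpud1 were all highest in KO neurospheres 2, the library with the fewest counts.

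Within each cell type the members differed in how much they varied between lines. Across the 8 MEF lines the coefficient of variation was 7.89% for Hsp90b1, 8.37% for Calr, 13.8% for Hspa5 and 15.0% for Pdia4, against 1.38%, 2.25%, 1.52% and 4.94% from counting alone. It was 17.1% for Atf4, 18.5% for Xbp1, 27.4% for Herpud1, 31.6% for Ddit3, 35.7% for Asns and 53.5% for Trib3, with counting errors of 2.90% to 9.81%. Trib3 ran 5.54-fold, from 12.6 CPM in WT MEFs 2 to 69.5 CPM in KO MEFs 1, and lines of both genotypes were found at each end. WT MEFs 2 and KO MEFs 2 were the lowest pair of lines for Ddit3 and Trib3. Across the 6 neurosphere lines the chaperones varied by 26.0% to 41.7%. KO neurospheres 3 had the highest level of all 4 chaperone genes and of Asns, but the lowest of Ddit3.

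**Figure D5:**
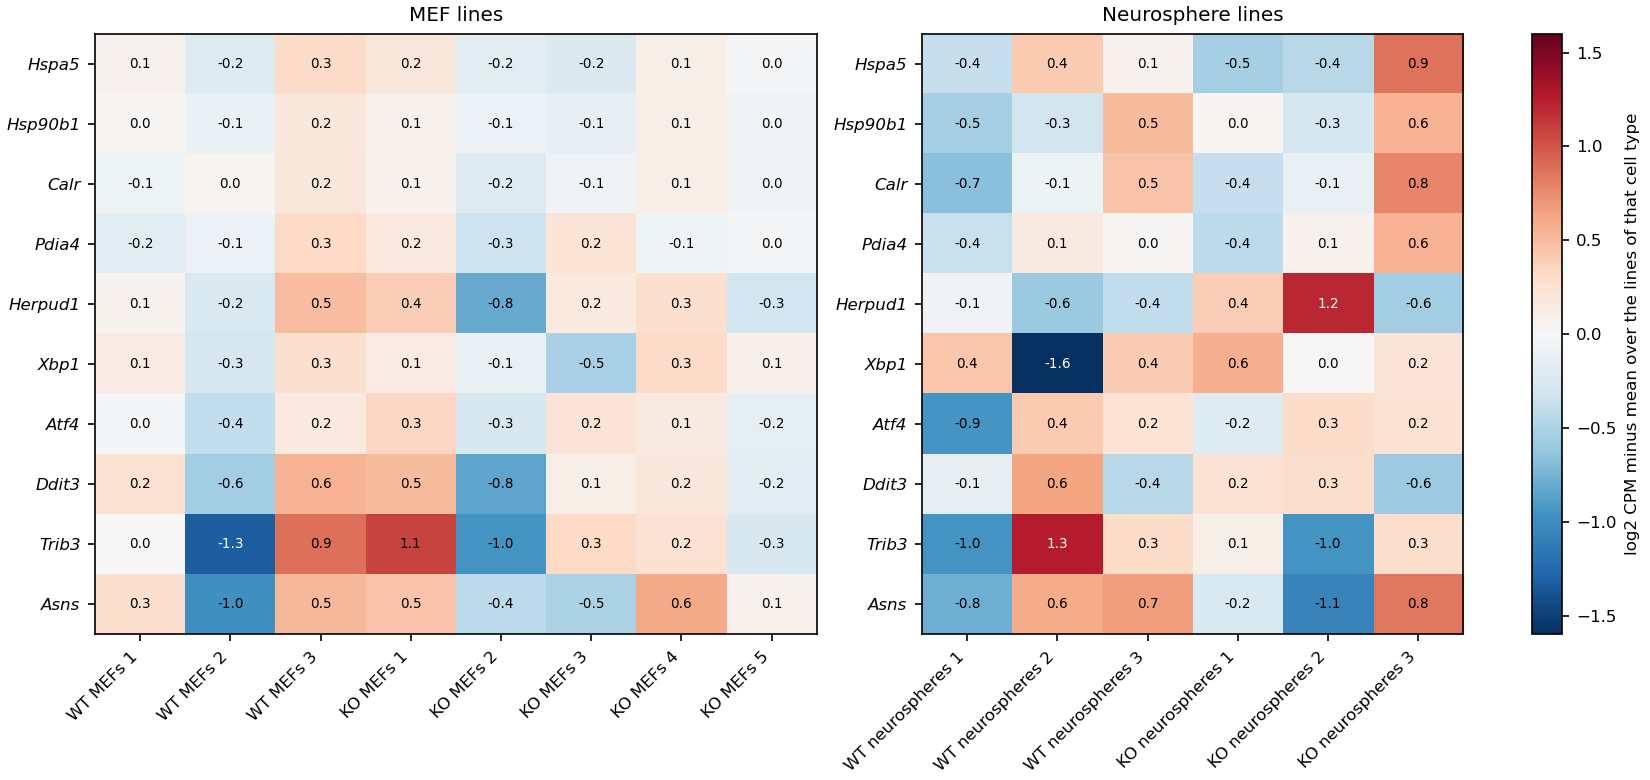
Log2 CPM of each gene in each line minus the mean over the lines of that cell type; MEF lines left, neurosphere lines right, red above and blue below the mean. In MEFs the rows of Ddit3, Trib3 and Asns are strongly coloured and those of the chaperones pale, and in neurospheres KO neurospheres 3 is red for the chaperones and blue for Herpud1 and Ddit3.

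The MEF lines were next compared by pairs of members. Pearson's r of log2 CPM was positive in 44 of 45 pairs of members, with a median of 0.72. Over all pairs of 4932 well-counted genes (a mean of at least 20 CPM in every group) 50.5% were positive, with a median of 0.01. Xbp1, Ddit3, Trib3 and Asns had means below 20 CPM in neurospheres, so this background leaves out genes as low there as these. Of the members' pairs 11 passed an exact permutation test adjusted over the 81 pairs tested in both cell types. The share of all gene pairs that would pass was not computed. For the 11 pairs, the share of other genes at least as close to the first gene ran from 0% (Hspa5 with Hsp90b1) to 3.85% (Xbp1 with Asns). The closest pair was Hspa5 with Hsp90b1 (r = 0.97, Spearman's rho = 0.98, exact permutation p = 0.000248 and 0.000397, adjusted 0.0100 and 0.0161, two-sided). Without the 2 lines farthest from the median of Hspa5, r was 0.94, and with each genotype centred on its mean it was 0.97. Of 4930 other well-counted genes, 0 were as close to Hspa5 in MEFs, while 596 (12.1%) were at least as close as Calr and 1369 (27.8%) at least as close as Pdia4.

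Atf4 and Trib3, a factor and its target, had r = 0.95 and rho = 0.98 (exact permutation p = 0.000124 and 0.000397, adjusted 0.0100 and 0.0161), and r = 0.86 without the 2 lines farthest from the median of Atf4. Of 4931 other genes, 1 was at least as close to Atf4. Ddit3 had r = 0.95 with Herpud1 (rho = 0.90, exact permutation p = 0.000521 and 0.00456, adjusted 0.0141 and 0.0528) and r = 0.94 with Trib3 (rho = 0.86, exact permutation p = 0.00104 and 0.0107, adjusted 0.0211 and 0.0868). Without the 2 farthest lines these were 0.93 and 0.90.

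The 11 pairs fell among 2 groups of genes. Hspa5, Hsp90b1, Xbp1 and Asns gave 6 of them, and Atf4, Ddit3, Trib3 and Herpud1 gave 5. Calr and Pdia4 gave none. The r between genes of different groups ran from 0.28 for Xbp1 with Atf4 to 0.81, against 0.83 to 0.97 within the groups. Of the other genes 42.1% were at least as close to Xbp1 as Atf4 was, and 3.85% at least as close as Asns. Without KO MEFs 3 the values between groups ran from 0.73 to 0.96 and those within from 0.84 to 0.98, so the division rests on that line. Without WT MEFs 2 the values between groups ran from 0.04 to 0.76. The division was described, and these lines were left out, after the values were seen. KO MEFs 3, the MEF library with the fewest counts, was low in Hspa5, Xbp1 and Asns while its Atf4 was the second highest and its Ddit3 and Trib3 lay near the medians.

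In neurospheres none of the 36 pairs passed after adjustment, and 5 had an unadjusted exact permutation p under 0.05. The value of r was positive in 19 of the 36, with a median of 0.24 over 6 lines. Over all pairs of well-counted genes 50.3% were positive there, with a median of 0.01. Hspa5 with Pdia4 had r = 0.87 (rho = 0.83, exact permutation p = 0.0167 and 0.0583, adjusted 0.0844 and 0.197), which fell to 0.53 without the 2 farthest lines. Herpud1 and Asns had a negative value, r = -0.86 (rho = -0.77, exact permutation p = 0.0194 and 0.103, adjusted 0.0926 and 0.222) and -0.96 without the 2 farthest lines. In MEFs the same pair had r = 0.62, and the difference was not tested.

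The genes with a pattern most like a member's were named by Pearson's r over all 14 libraries, after each group was centred on its mean, among 4932 genes with that minimum level. For Hspa5 these were Rrbp1 (r = 0.951), a ribosome-binding protein of the rough ER, Pdia6 (0.942), Nme2 (0.938), Dnajc25 (0.928) and Ybx1 (0.905). In that order, r with Hspa5 was 0.92, 0.70, 0.86, 0.64 and 0.85 within MEFs, and 0.97, 0.98, 0.95, 0.97 and 0.91 within neurospheres. For Asns the genes of like pattern included Tmem126a (0.957), Hmgcs1 (0.953), Tomm7 (0.952) and the pseudogene Rps2-ps10 (0.949). Asns itself lay below the minimum level in neurospheres, at 3.6 to 15.7 CPM. Hmgcs1 encodes an enzyme early in cholesterol synthesis, and Tomm7 and Tmem126a mitochondrial proteins. These are the highest of many values over lines that share libraries and are given as a description.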

How the data were processed

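RNA of 14 lines was measured with the QuantSeq 3′ FWD kit, per the labels' protocols. The authors' deposited files hold expected counts and TPM per transcript from Salmon 1.1.0; edgeR is also named, without a version, per the submitters' processing notes. The transcript set, genome build and options of the mapping are not stated there. Of 116945 transcripts per file, 115560 matched GENCODE M21 (GRCm38) with their version and 385 by identifier alone; 1000 unmatched ones (0.251% to 0.425% of reads) were left out. The deposited expected counts were summed per gene (35449) and rounded. Ddit3 has another identifier of that name in M21, which had 0 counts. A search of the last 400 bases found no near-identical copy of a member.

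Groups came from the labels' cell type and genotype. Each of 5 comparisons was fitted with edgeR 4.0.16 in R 4.3.3 (TMM, default filter on low counts, robust quasi-likelihood test, Benjamini-Hochberg over all genes tested, threshold 0.05) and checked on simulated data. Fold changes are 2 to the power of the fitted log2 value. Correlations used log2 CPM with prior count 2 and exact permutation. For a count of 0, an upper limit of 3 counts was used, which covers counting error only. Alternatives were DESeq2 1.42.0, its size factors, other filters, all libraries in 1 fit, a replicate block and lines left out. The deposited TPM in limma 3.58.1 with pseudocount 1 was a further alternative for KO against WT alone. It was not run for the cell type differences or the interaction. Promoters are from RefSeq (GRCm38.p6).

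The members and lists were chosen with earlier results of these data known. Named are all members; per list, up to 3 genes each way that passed in both cell type comparisons, by size in WT lines; where no list gene passed between KO and WT, the 5 with the smallest unadjusted p and at least 20 CPM in 1 group; and 5 genes of like pattern for Hspa5 and for Asns, of which 1 is not reported here.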

Additional observations from a re-analysis of the deposited data

How the results depend on the processing

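The direction and side of the threshold of the cell type differences held in 124 of 130 member results under the alternatives in WT lines. In KO lines they held in 147 of 150. No direction turned, but no TPM fit was among these alternatives. The exceptions are Ddit3 and Herpud1. In WT lines Ddit3 did not pass with the replicate block (log2 -1.21, edgeR adjusted p = 0.106) or with library size alone as scaling (log2 -1.16, adjusted p = 0.0533, an alternative chosen after seeing the data), and with 1 line left out its log2 value ran from -1.59 to -0.95. In KO lines it did not pass with the replicate block (log2 -1.09, adjusted p = 0.118), and with 1 line left out it ran from -1.29 to -0.87, and Herpud1 from -1.08 to -0.20. Hspa5 in KO lines ran from -3.17 to -2.33, Asns from -3.90 to -2.82, and Trib3 in WT lines from -5.89 to -4.13. Each left-out fit has fewer lines.

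The count of genes called between KO and WT MEFs was 0 with the replicate block and 3 when WT MEFs 2 was dropped together with KO MEFs 3 (chosen after seeing the data), against 1. In neurospheres it was 7 with DESeq2 and 2 without a filter, against 1, and it ran from 0 (without WT neurospheres 2 or KO neurospheres 1) to 2 (without WT neurospheres 1) with 1 line left out. For the interaction DESeq2 called 3 genes against 0. For KO neurospheres against KO MEFs 3295 genes were called with the replicate block, against 5892. The cause of these moves was not tested.

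The labels state no pairing of lines by replicate number. The correlation of same-numbered lines' deviations from their group means ran from -0.59 to 0.03 in MEFs and from -0.11 to 0.22 in neurospheres. Across cell types it ran from -0.08 to 0.01 in WT lines and from -0.09 to -0.02 in KO lines. With so few lines per group, these values cannot decide whether same-numbered lines were paired. The block changed no call of a member other than those of Ddit3.

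No member was called between KO and WT, or in the interaction, under any alternative, and the direction of these small values was not stable: it turned in 20 of 170 results in MEFs, 15 of 126 in neurospheres and 24 of 210 in the interaction. With the replicate block Asns was -0.09 in MEFs, Hspa5 -0.05 in neurospheres and Atf4 0.03 in the interaction. With TPM in limma Pdia4 was 0.44 in MEFs and -0.31 in neurospheres. With these same lines (WT MEFs 2 together with KO MEFs 3) left out, Atf4 was -0.04, Trib3 -0.31 and Asns -0.18 in MEFs, and Atf4 0.15 in the interaction. With 1 line left out in MEFs, the log2 value ran for Hspa5 from -0.21 to 0.04, Hsp90b1 from -0.11 to 0.03, Pdia4 from -0.12 to 0.14, Xbp1 from -0.19 to 0.06, Ddit3 from -0.40 to 0.12, Trib3 from -0.28 to 0.77, Asns from -0.29 to 0.34 and Herpud1 from -0.29 to 0.09. With 1 line left out in neurospheres, the log2 value ran for Hspa5 from -0.56 to 0.32, Hsp90b1 from -0.09 to 0.56, Calr from -0.22 to 0.55, Pdia4 from -0.11 to 0.43, Xbp1 from -0.13 to 0.58, Atf4 from -0.20 to 0.39, Ddit3 from -0.28 to 0.34, Asns from -0.96 to 0.14 and Herpud1 from 0.33 to 1.20. With 1 line left out in the interaction, the log2 value ran for Hspa5 from -0.46 to 0.39, Hsp90b1 from -0.03 to 0.60, Calr from -0.13 to 0.62, Pdia4 from -0.08 to 0.43, Xbp1 from -0.10 to 0.62, Atf4 from -0.34 to 0.22, Ddit3 from -0.19 to 0.45, Trib3 from -1.52 to 0.21, Asns from -0.98 to 0.11 and Herpud1 from 0.46 to 1.33. Depth limits Trib3 in neurospheres, where no line had more than 6 counts, and Xbp1 and Asns there, with as few as 6 counts in a line.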

Other observations

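Among the amino acid transporter genes of the ATF4 list, Slc7a3 and Slc7a11 differed in opposite directions between the cell types in KO lines. In KO neurospheres Slc7a3 had 16 counts in all, at 0.824 to 6.59 CPM, and Slc7a11 ran from 30.4 to 266 CPM. Slc7a3, a cationic amino acid transporter gene, was lower in KO neurospheres than in KO MEFs (log2 -3.09, SE 0.63, edgeR adjusted p = 0.00270) and Slc7a11, the cystine transporter gene, was higher there (log2 2.63, SE 0.56, adjusted p = 0.00362). In WT lines Slc7a11 did not differ at the threshold (log2 -0.03, SE 0.65, 95% interval -1.57 to 1.5, adjusted p = 0.972), and Slc7a3 did not pass the filter. The interaction of Slc7a11 had an unadjusted edgeR p of 0.0153 and an adjusted p of 1, so a difference between genotypes in its cell type effect was not called. These genes were chosen after their values were seen.

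Dars, the aspartyl-tRNA synthetase gene, stood at 76.7, 57.3 and 59.6 CPM in WT neurospheres and at 80.7, 124 and 82.0 CPM in KO neurospheres, without overlap (log2 0.58, SE 0.26, edgeR adjusted p = 0.999). As for Slc7a11 and Herpud1, KO neurospheres 2 was the highest line.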
